A study of Homo sapiens with 4 samples.

Results

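MYC and the genes that partner or oppose it were examined in a map of PML binding made by chromatin immunoprecipitation and sequencing (ChIP-seq) in MDA-MB-231, a long-established line grown from human triple-negative breast cancer. The genes were MYC, PVT1, MYCN, MYCL, MAX, MXD1, MXD4, MXI1, MNT and MLX. Peaks were taken when the deposited annotated peak table named 1 of these 10 genes as the nearest gene, or when they lay on chromosome 8 between 126500000 and 129000000 (hg38), the window around MYC and PVT1. This gave 170 of the 68937 peaks of the list. Of these, 57 named a member, 120 lay in the window and 7 did both. Members were chosen by name and position, not by peak score, though with earlier results of these data known. The labels describe 2 PML ChIP libraries, made with 1 antibody against PML, and 2 input libraries of the same line, and name no treatment or second condition.

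The authors merged the duplicates, with input as the control for peak calling, so there is 1 peak list, no replicate error and no test between samples. Every comparison is a description of that list. Depth per library is unknown from the table. Each peak has a score from the authors, in whole numbers and with no stated scale, which serves below only to order peaks of the list. Scores ran from 13 to 5641 with a median of 34 and an upper quartile of 49, and the median peak was 436 bp wide. Peaks centred within 1000 bp of a transcription start site (TSS) had a median score of 58 and a median width of 739 bp. Peaks over 10000 bp from a TSS had a median score of 31 and a median width of 392 bp.

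MYC is a transcription factor that pairs with MAX through a helix-loop-helix and leucine zipper and binds the E-box, CACGTG, at genes for ribosome production, metabolism and cell division. MXD1, MXD4, MXI1 and MNT also pair with MAX and recruit corepressors to the same sites, and MLX is a second shared partner that links this network to nutrient sensing. PML is the scaffold of PML nuclear bodies, and the series concerns PML acting with RONIN (also called THAP11), a promoter-binding zinc-finger factor, and with the growth kinase mTOR. PVT1, a long noncoding RNA gene beside MYC, hosts several microRNAs.

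The promoter sequences that bear on these factors are those of MLX, MNT and MXD4, which hold a canonical E-box, and the third listed start of MXI1, which holds a RONIN-type motif. They are RefSeq sequences of GRCh38.p14, from 250 bases before to 50 bases after the gene start, printed 5′ to 3′ on the gene's strand with the motif in capitals. The windows are chr17:42566850-42567149 (plus strand) for MLX, chr17:2401011-2401310 (minus strand) for MNT, chr4:2262060-2262359 (minus strand) for MXD4 and chr10:110225746-110226045 (plus strand) for MXI1.
MLX: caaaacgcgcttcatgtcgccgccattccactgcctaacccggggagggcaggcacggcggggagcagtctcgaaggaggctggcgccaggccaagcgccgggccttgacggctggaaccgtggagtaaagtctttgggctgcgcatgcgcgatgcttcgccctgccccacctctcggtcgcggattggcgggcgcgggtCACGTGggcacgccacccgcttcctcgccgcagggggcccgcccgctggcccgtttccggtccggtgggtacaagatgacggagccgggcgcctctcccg
MNT: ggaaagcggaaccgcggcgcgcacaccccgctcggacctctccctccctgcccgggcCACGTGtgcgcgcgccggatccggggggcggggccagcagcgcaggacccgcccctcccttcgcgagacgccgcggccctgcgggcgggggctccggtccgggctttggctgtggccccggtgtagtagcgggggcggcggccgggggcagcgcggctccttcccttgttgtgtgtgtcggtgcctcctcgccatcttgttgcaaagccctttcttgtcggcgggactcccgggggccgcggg
MXD4: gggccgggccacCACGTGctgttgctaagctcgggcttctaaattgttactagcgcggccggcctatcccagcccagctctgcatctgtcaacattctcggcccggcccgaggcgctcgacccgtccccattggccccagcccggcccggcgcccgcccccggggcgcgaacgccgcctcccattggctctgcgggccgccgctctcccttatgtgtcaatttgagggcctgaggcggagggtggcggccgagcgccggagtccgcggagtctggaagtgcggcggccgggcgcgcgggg
MXI1: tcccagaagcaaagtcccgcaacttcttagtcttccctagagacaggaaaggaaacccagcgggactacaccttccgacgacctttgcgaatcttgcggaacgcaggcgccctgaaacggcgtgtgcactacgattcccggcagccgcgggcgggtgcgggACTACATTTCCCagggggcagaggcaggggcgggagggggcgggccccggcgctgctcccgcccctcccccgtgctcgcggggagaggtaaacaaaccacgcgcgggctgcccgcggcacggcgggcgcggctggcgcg
RefSeq promoter windows were found for 8 of the 10 members, 11 windows in all, since MXI1 has 3 and MAX has 2. MYC and PVT1 were not analysed for motifs here. Of the 11 windows, 10 lay under a PML peak by at least 1 base, and the other was the inner MAX window at chr14:65101635-65101934. Over all RefSeq windows of this kind, 14124 of 35116 lay under a peak. Counted by gene, 42.5% of all genes with such a window, noncoding ones included, had a peak over one. Windows of the members had 55% to 76% G and C bases with a median of 69%, against a median of 68% over all windows under a peak and 50% over windows with no peak.

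Of the 11 member windows, 3 held CACGTG, which reads the same on both strands. Over all 35116 RefSeq windows of the same length the share was 7.26%, and it was 9.98% in windows under a peak and 5.42% in windows with no peak. Positions are counted from 1 at the gene start, with negative numbers before it. The E-box began at -50 in MLX, at -193 in MNT and at -238 in MXD4, and each lay inside a PML peak. The MLX E-box was 113 bp from the centre of its peak, that of MXD4 513 bp and that of MNT 1777 bp, the last in a peak far wider than the others. A match of 6 letters is a description and does not show that any factor bound there.

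The 12-base motif that RONIN and the zinc-finger factor ZNF143 are known to share, of which 2 bases may be any letter, was searched on both strands. It was found in 1 of the 11 windows, as ACTACATTTCCC at -89 of the third MXI1 start, inside the highest-scoring MXI1 peak and 834 bp from its centre. All RefSeq windows held it in 1.75% of cases, windows under a peak in 3.03% and windows with no peak in 0.896%. The GC box GGGCGG, on either strand, was present in 10 of the 11 member windows, against 74.7% of windows under a peak and 24.9% of windows with no peak. CCAAT, on either strand, was present in 3 of the 11, against 31.0% of windows under a peak and 37.0% with no peak.

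PML peaks lay at the promoters of nearly all members. For 9 of the 10 members, all but MNT, a peak naming the gene had its centre no more than 1000 bp from a TSS. Among RefSeq protein-coding genes 54.5% had such a peak, among those that the table names for any peak the share was 78.6%, and among RefSeq long noncoding RNA genes, the class of PVT1, 5.14%. Members were chosen by name and not by peaks, so their background is the 54.5%, or the 5.14% for PVT1. All 10 had a named peak, however, and beside the 78.6% the count does not set them apart from other named genes. All 10 gene starts given by RefSeq lay under a peak when overlap was used in place of the peak centre. Just inside and outside the 1000 bp limit lay MXI1 peaks centred 745 and 1029 bp from a TSS, and the nearest MNT peak was centred at 1589 bp.

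By the highest-scoring promoter peak, the order was MXD1 (174), MXI1 (156), MYCL (135), MYC (104), MXD4 (99), MLX (98), PVT1 (90), MAX (61) and MYCN (60). The median over these 9 was 99, against 61 for the 12478 genes that had any promoter peak. MXD1 stood at percentile 91.9 of those genes, MXI1 at 89.1, MYCL at 84.6 and MYC at 75.1. MAX and MYCN lay near the middle, at percentiles 51.5 and 47.8. With no replicate error, neighbours in this order cannot be told apart, and MXD4 and MLX differ by 1 unit of the score.

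**Figure D1:**
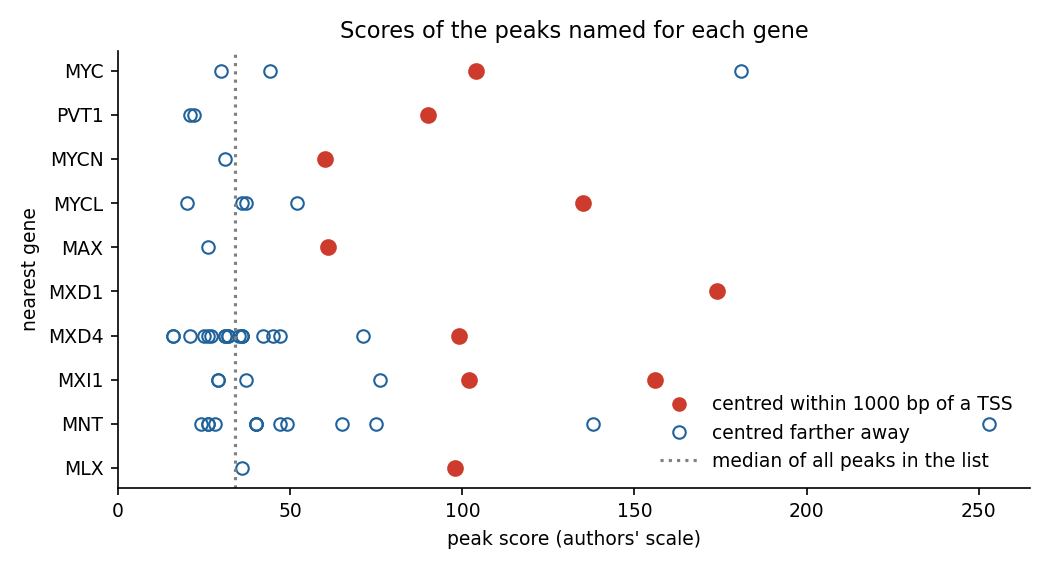
Peak score on the authors' scale (horizontal axis) for every peak that names each member (rows); filled points are centred within 1000 bp of a TSS, open points farther away, and the dotted line is the median of all peaks, 34. Every filled point lies at 60 or above, and the highest-scoring point of MYC (181) and of MNT (253) is an open one.

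MYC carried a pair of broad PML peaks over its promoter and first intron. The first ran from 127734928 to 127736636 on chromosome 8 (1709 bp, score 104), covered the gene start and was centred 348 bp inside the gene. The second ran from 127736929 to 127739108 (2180 bp, score 181), was annotated to intron 1 of 2 and to a CpG island, and began 292 bp after the first ended. Its score ranked 1154 of the whole list and that of the first 4227. The higher of the pair thus lay inside the gene, centred 2.584 kb from the gene start and 1787 bp from a later TSS of MYC. A small peak of 269 bp at the transcript end, from 127743148 to 127743416, scored 30. Another, from 127752277 to 127752634, scored 44 and lay 16224 bp from that later TSS in an AluSz element.

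At the other MYC family genes the highest score was 135 for MYCL and 60 for MYCN, against 181 for MYC. MYCL, the family member first found in small-cell lung cancer, had a promoter peak of 1808 bp on chromosome 1 from 39900923 to 39902730 with a score of 135. Its 4 other peaks lay 11400 to 24819 bp upstream and scored 20 to 52, 1 of them in an SVA_D and 1 in an L2 element. MYCN, the family member amplified in neuroblastoma, had a promoter peak of 1501 bp on chromosome 2 from 15939627 to 15941127 with a score of 60. Its second peak, with a score of 31, lay 1581 bp upstream and was annotated to the end of MYCNOS, the antisense neighbour of MYCN.

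The shared partners had 2 peaks each. MAX, the obligate partner of MYC, had a peak of 1374 bp on chromosome 14 from 65102008 to 65103381 and centred 1 bp from a TSS. Its score was 61. Its second peak, 54109 bp upstream, scored 26. MLX had a peak of 1205 bp on chromosome 17 from 42566561 to 42567765, centred 103 bp from a TSS, and its score was 98. The table classed that peak by the end of COASY, the upstream neighbour that encodes coenzyme A synthase. The second MLX peak, with a score of 36, lay in intron 9 of 10 of COASY. Both peaks named for MLX thus carry an annotation to COASY.

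The antagonists differed among themselves. MXD1 and MXI1 had the highest promoter scores of the members, and MXD4 and MNT were the nearest gene of the most peaks, many of them in neighbouring genes. MXD1, a repressor induced in differentiating cells, was named for a single peak, on chromosome 2 from 69914167 to 69915706, which was 1540 bp wide, centred 105 bp upstream of a TSS and scored 174. Its rank in the whole list was 1282. MXI1, which has several starts, had a peak over each of the 3 RefSeq promoter windows on chromosome 10. They ran from 110207424 to 110209844 (score 76), from 110210153 to 110211736 (score 102) and from 110225862 to 110227620 (score 156), with a gap of 308 bp between the first 2. The scores increased in the order of the starts along the plus strand. The highest belonged to the start with the RONIN-type motif printed above, but any link between motif and score was not tested. The match does not show that RONIN bound there. The 3 other MXI1 peaks lay 50500 to 56024 bp upstream and scored 29 to 37.

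MNT, a broadly expressed repressor, had the highest-scoring and the widest member peaks, though none was centred within 1000 bp of its TSS. A peak of 5880 bp on chromosome 17 from 2396532 to 2402411 covered the gene start, was annotated to intron 1 of 5 and scored 138. It ranked 29 of the whole list by width. A peak from 2392312 to 2394595, in intron 4 of 5 and a CpG island, scored 253 and was the highest of all 57 peaks naming a member. Between them lay a peak from 2395048 to 2396179 with a score of 49, so that gaps of 452 and 352 bp separated these 3. Of the 13 peaks named for MNT, 5 lay in MNT itself, 7 in SGSM2, the downstream neighbour, and 1 in the noncoding LOC284009. The next highest scores were 75 in LOC284009 and 65 in intron 12 of SGSM2, and the lowest was 24 in the MNT 3' UTR.

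MXD4, another MAX-binding repressor, was named for 19 peaks, a number that 2.28% of the named genes reached or passed. Only 3 of these 19 were annotated to MXD4, with scores of 26 to 99, while 13 lay in ZFYVE28, the neighbour upstream, with scores of 16 to 71. The other 3 were intergenic. The promoter peak ran from 2260644 to 2263014 on chromosome 4 (2371 bp, score 99), was centred 280 bp from the TSS and overlapped a CpG island. After it, the highest scores were 71 in intron 8 of 12 of ZFYVE28, 47 in exon 11 of 12, 45 and 42, both in intron 8 of ZFYVE28, the last in an MLT1E1 element. Most peaks named for MXD4 and for MNT were thus annotated outside the gene.

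The 4 further genes of the network, set beside the 9 protein-coding members, had promoter scores up to 169. MLXIP (MondoA), which pairs with MLX, had a promoter score of 169, and MXD3, a MAX-binding repressor, 99. MGA, a MAX partner with a second DNA-binding domain, had 119. Another RefSeq promoter window of MGA, chr15:41620974-41621273, lay under a peak scoring 165 that was not counted as an MGA promoter peak. MLXIPL (ChREBP), the glucose-responsive partner of MLX, was the only one of these 4 without a promoter peak; the single peak naming it lay 21634 bp from the TSS and scored 31. In all, 11 of these 13 protein-coding genes (84.6%) had a promoter peak, a share near the 78.6% of protein-coding genes with a named peak and above the 54.5% of all RefSeq protein-coding genes.

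The MYC locus window held 120 peaks, most densely over MYC and PVT1. Of these, 42 lay in PVT1 or its promoter, 3 in MYC or within 1000 bp of it, and 3 between the 2 genes. Another 44 lay upstream of MYC and 28 beyond PVT1. This was 13.6 peaks per 100 kb in PVT1, against 31.5 in the short MYC section, which rests on 3 peaks, 6.05 between the genes, 3.56 upstream of MYC and 3.12 beyond PVT1. Tiles of 100 kb had a median of 1 peak over 30272 tiles of the autosomes and X. Within PVT1, the tile from 127900000 held 21 peaks, as many as or more than 98.9% of tiles, and that from 127800000 held 13. On chromosome 8, 47 tiles held 21 peaks or more. All 25 tiles of the window held at least 1 peak. Over the whole 2.5 Mb the window had as many peaks as or more than 87.5% of 1201 windows of its width, whose median was 27, and 86.2% of the 58 on chromosome 8, whose median was 44.5. The peaks nearest the window's edges scored 39 and 66 inside, and 44 and 33 outside.

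**Figure D2:**
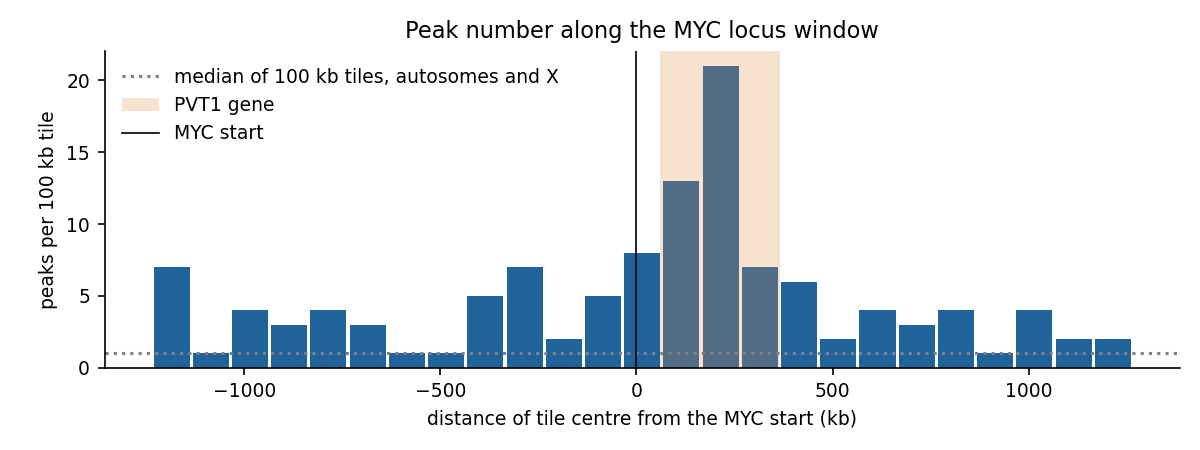
Number of peaks in each 100 kb tile of the window (vertical axis) against the distance of the tile centre from the MYC start in kb (horizontal axis); the shaded band is PVT1, the solid line the MYC start and the dotted line the median of all tiles, 1 peak. The 2 tallest bars, 21 and 13 peaks, lie inside PVT1.

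Among long genes PVT1 was densely covered by peaks. It held 41 peaks centred within its 306733 bp, or 13.4 per 100 kb. Over 4346 protein-coding and long noncoding RNA genes of at least 100 kb the median was 0.86 per 100 kb, and 138 genes were denser. Among the 990 long noncoding RNA genes of that length, 9 were denser and 1 had more peaks. On chromosome 8, 14 of 232 such genes were denser. Gaps between neighbouring peaks in PVT1 had a median of 4.52 kb, against 19.4 kb upstream of MYC and 24.8 kb beyond PVT1.

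The peaks in PVT1 were also higher in score, wider and less often in repeats than those on either side. Their median score was 46.5 and their median width 536 bp, against 28 and 376 bp for the 72 peaks of both flanks together. Of the 42, 19 (45.2%) were in the highest-scoring 25% of the list, and 12 of the 72 flank peaks (16.7%) were. A repeat element was named for 4 of the 42 (9.52%) and for 39 of the 72 (54.2%). Over the whole list the share was 24.8%, and over intron peaks 25.2%. Flank peaks were mostly intergenic, and over all peaks beyond 10000 bp from a TSS the share was 35.6%. Peaks of 1000 bp or more numbered 8 in PVT1, 2 in MYC and 2 upstream of MYC, and made up 10% of the window's peaks, against 11.6% of the list. These are values of 1 merged list, and neighbouring peaks are not independent.

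**Figure D3:**
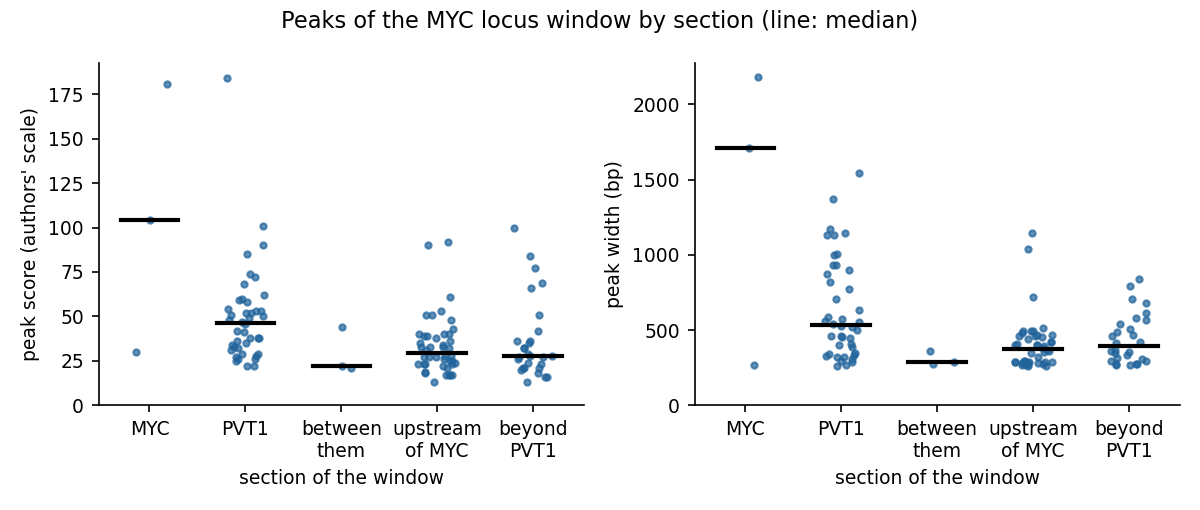
Score on the authors' scale (left) and width in bp (right) of each peak of the window by section, with a bar at the median. MYC and PVT1 have medians of 104 and 46.5 in score, against 29.5 upstream of MYC and 28 beyond PVT1.

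The PVT1 promoter peak ran from 127793905 to 127794836 (932 bp), was centred 163 bp upstream of the TSS and scored 90. The only other peaks naming PVT1 lay 4063 and 15558 bp upstream and scored 21 and 22, the first in an L2a element. All 41 peaks centred in the gene were named by the table for shorter genes inside it: 18 for TMEM75 (now LINC02912), 9 for MIR1204, 7 for MIR1205, 4 for MIR1207 and 3 for MIR1206. No promoter peak of these genes was among them, the nearest being a TMEM75 peak centred 1206 bp upstream with a score of 52. Of the 42 peaks in PVT1 or its promoter, the gene name column thus gave 1 to PVT1.

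The highest score of the window, 184, belonged to a PVT1 intron 1 peak of 1134 bp from 127853865 to 127854998, whose centre lay 119 kb from the MYC start. Its rank in the whole list was 1081, next to the MYC intron peak at 1154. Intron 1 held 10 further peaks, among them one from 127859519 to 127860519 with a score of 72, and its 11 peaks had a median of 38. Intron 2 held 13 peaks with scores of 22 to 85, the highest from 127931257 to 127932190. Intron 3 held 9, with the highest median, 53, of the introns with several peaks, and a top score of 101 from 127941747 to 127942334. A second intron 3 peak, from 127964046 to 127964588, scored 74.

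Farther along the gene, peaks were sparser than in its earlier introns. The 100 kb tile from 128000000 still held 7 peaks, as many as or more than 92.1% of tiles. After 127983131 there was none for 35.5 kb, the longest such stretch in PVT1. Intron 5 then held 5 peaks with scores of 38 to 68, the highest from 128018621 to 128019081, and introns 6 and 7 held 1 each, with scores of 25 and 29. Exon 3 of 9 held 1 peak with a score of 34. The table placed none in intron 4 or intron 8.

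**Figure D4:**
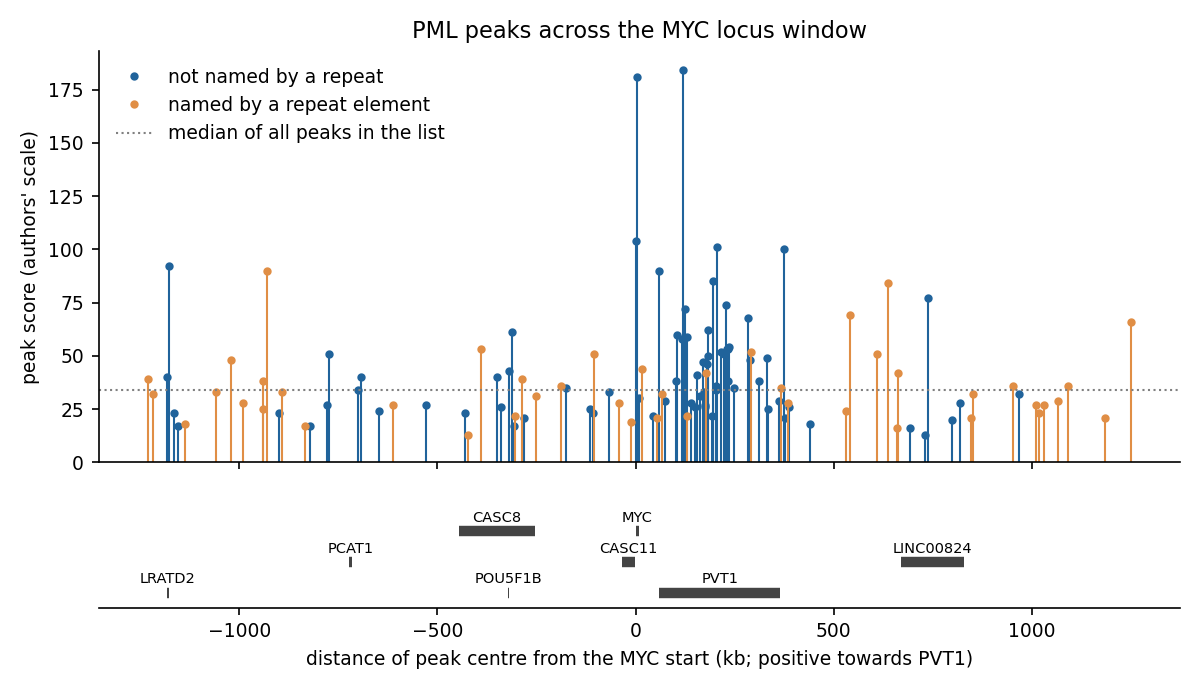
Score of each of the 120 peaks (vertical axis, authors' scale) against the distance of its centre from the MYC start in kb (horizontal axis), with genes drawn to scale below. Blue peaks, not named by a repeat, are densest over MYC and PVT1 but also lie in both flanks. Orange peaks, named by a repeat, are 39 of the 72 flank peaks, 21 of the 44 upstream of MYC and 4 of the 42 in PVT1. The tallest peaks, at 184 and 181, lie in PVT1 and MYC.

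Outside MYC and PVT1, few genes of the window had a promoter peak. LRATD2, at the far upstream end, had one of 1041 bp from 126557649 to 126558689 with a score of 92, and POU5F1B, a retrogene of the pluripotency factor gene POU5F1, one from 127415873 to 127417017 with a score of 43. The noncoding RNA genes upstream of MYC named here had none assigned within 1000 bp. Over all RefSeq long noncoding RNA genes, only 5.14% had a promoter peak by the same rule. Among peaks that name each gene, the nearest lay 2374 bp from a TSS for CASC8 (score 31), 4085 bp for CCAT2 (26) and 4948 bp for PCAT2 (24). It lay 9503 bp away for CASC11 (19), 9555 bp for CASC19 (27), 22692 bp for PCAT1 (34) and 61441 bp for CASC21 (23). Peaks named for other genes can lie nearer. CCAT1 and PRNCR1 were the nearest gene of no peak, though 1 peak with a score of 24 overlapped PRNCR1. The CASC19 peak with a score of 27 was annotated to the transcript end of CCAT1 without overlapping that gene. CASC11 starts beside MYC in the opposite direction, at -1.467 kb from the MYC start. The MYC promoter peak, centred at 0.348 kb, was given to MYC alone and was not centred within 1000 bp of that CASC11 start.

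The highest upstream peaks after LRATD2 were in or near other features. One of 517 bp from 126805058 to 126805574, in an L1PA2 element, scored 90, and one from 127422837 to 127423296, in intron 4 of a CASC8 transcript, scored 61. Beyond PVT1, a peak of 839 bp from 128108935 to 128109773, in no repeat, scored 100 and was the fifth highest of the window. It lay 374 kb from the MYC start and was named for MIR1208, as were 8 others of the window. Farther on, LINC00824 was named for 14 peaks, 9528 bp or more from its TSS, the highest with a score of 84 in a simple repeat and then 77 in intron 2. Repeats in the window were 17 LINE, 15 LTR, 7 SINE, 3 SVA retroposon, 2 DNA and 1 simple repeat peaks, with median scores of 32, 33, 24, 36, 24 and 84. Beyond the window, the nearest peaks naming CCDC26, GSDMC, LINC00977 and LINC00861 lay 10580, 11850, 9312 and 21121 bp from a TSS, with scores of 20 to 41.

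Genes that act on MYC, and genes that MYC is known to switch on, also had PML peaks at most promoters. Such a peak was common in general, at 78.6% of protein-coding genes with a named peak and 54.5% of those in RefSeq. Of 30 cofactor and stability genes, 26 (86.7%) had one, with a median score of 61.5, close to the 61 of all genes that had one. GSK3B, a kinase that marks MYC for breakdown, led with 323, followed by the acetyltransferase gene KAT5 (144), the deacetylase gene HDAC2 (124), the ubiquitin ligase gene HUWE1 (120) and the mitotic kinase gene AURKA (117). CDK9, SIN3B, EP300 and SKP2 had none. The table gives each peak to 1 gene, and CDK9 was overlapped by 2 peaks, named for CDK9 and MIR3960, with a highest score of 171. SKP2 was overlapped by 2, named for LMBRD2 and SKP2, with a highest score of 176, and EP300 by 1, named for MIR1281, with a score of 60. SIN3B was overlapped by none. Over RefSeq protein-coding genes, 70.8% were overlapped by a peak.

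Of 30 MYC target genes, 23 (76.7%) had a promoter peak, with a median score of 83. The highest were those of ODC1, the first enzyme of polyamine synthesis (230), the snoRNP gene NOP56 (209), the chaperonin gene HSPD1 (156), the ribosome biogenesis gene RRS1 (142) and the amino acid transporter gene SLC7A5 (130). FBL, NOP16, BOP1, PPAN, GNL3, HSPE1 and POLR1B had none that named them. Each peak is given to 1 gene, so a peak at a start shared with a neighbour can count for the neighbour alone. Of these 7, NOP16, BOP1, PPAN, GNL3 and POLR1B were overlapped by peaks, with highest scores of 197, 228, 83, 98 and 136, and FBL and HSPE1 by none. The shares of both lists, 86.7% for cofactor and stability genes and 76.7% for targets, lay above the 54.5% of RefSeq protein-coding genes. Beside the 78.6% of those with a named peak, the cofactor share was higher and the target share slightly lower. Neither list was tested, and beside the 78.6% these counts do not set either list apart from other named genes.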

How the data were processed

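PML ChIP and input libraries of MDA-MB-231 cells, 2 each, were sequenced, and the authors merged the data of the duplicates, per the series' design text. Tools listed in the submitters' processing notes are HOMER 4.11.1, MACS2 2.1.1.20160309, BWA 0.7.12, Trimmomatic 0.36 and Picard 2.0.1, and the build is hg38, with no role or setting for any of them. Per the file headers, the deposited table gives each peak's position, score, distance to the nearest TSS, annotation and nearest gene. The score was deposited by the authors on an unstated scale, and positions and distances are in bp. Reads that map to repeats or to near-identical copies can place peaks uncertainly, and their treatment is not given in these sources.

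Genes were matched by gene ID to RefSeq GRCh38.p14, whose starts lay within 2 bp of a TSS implied by the table for MYC, MYCN, MYCL, MAX, MXD4, MXI1 and MNT. Widths count both end bases. A promoter peak is one centred within 1000 bp of a TSS of the gene it names. Sections of the window count a peak by its centre, with 1000 bp added before PVT1 and on both sides of MYC. Tiles and windows started at the first base of each chromosome. Motifs were searched in RefSeq promoter windows of 300 bp. All members are named, with every peak for members with up to 8 and otherwise the promoter peak, the 5 highest and the lowest. From the cofactor and target lists, the 5 highest promoter scores and every gene without a promoter peak are named. Single peaks in the locus window were chosen for mention knowing their scores. Members and lists were chosen with earlier results of these data known. Functions were tested on simulated data. Alternatives covered the promoter window, the scores kept, the gene start and the window. Python 3.11.15, numpy 2.4.6, pandas 2.3.3, scipy 1.17.1 and matplotlib 3.10.9 were used.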

Additional observations from a re-analysis of the deposited data

How the results depend on the processing

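The number of members with a promoter peak was 8 with a 500 bp window or the RefSeq gene start, 9 with the upper 50% or the top 25% of the list by score, and 10 with a 5000 bp window or overlap with the gene start. The counts of network and target genes stayed within 1.5 times under the same windows and score limits. With the top 25%, 16 cofactor genes had a promoter peak. The window held 60 peaks of the upper 50%, 33 of the top 25% and 74 within 500 kb of the middle of MYC, all by construction. Its median score of 33.5 was 44 over the peaks named for MYC or PVT1. The 95% interval around the 33.5, 29 to 38 from order statistics, covers counting error only. It treats peaks as independent, which neighbouring peaks are not, and it holds no replicate error. The percentile of the window's peak number was 88.0 with the upper 50%. The overlap with the gene start, and the top 25% for the gene lists other than the members, were chosen after seeing the data. E-boxes inside peaks were planned and not run, since no genome was used here. No paired analysis was possible because the table holds 1 merged list, and for the same reason no replicate could be left out. Read depth per library is unknown, so no error can be given for a score.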
